A study of Homo sapiens with 6 samples.

Results

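The glucocorticoid receptor gene NR3C1 and 6 genes that the receptor is known to induce, SGK1, FKBP5, TSC22D3, PER1, DUSP1 and ZBTB16, were examined for open chromatin in MM.1S cells. These 7 of the 20033 protein-coding genes of GENCODE release 44 were taken as a fixed list by name, and the region described for each was the gene body with 150 kb on each side. Peaks of the 6 libraries that overlapped by at least 1 bp were merged, which gave 89196 regions in the genome, and 200 of them lay in the 7 windows. The promoter was taken as 1000 bp on each side of any annotated transcription start site (TSS) of the gene.

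MM.1S is an established multiple myeloma cell line from ATCC that is known to respond to glucocorticoids. The groups received 120 nM of CB-6644, an inhibitor of the ATPase activity of RUVBL1/2, for 72 h, or DMSO, the vehicle, and live cells were sorted before Omni-ATAC, in which a transposase cuts accessible DNA. Each group had 3 libraries, and peaks were called in each library on its own. The comparison asks where chromatin was opened or closed after RUVBL1/2 inhibition. All libraries came from 1 cell line, no glucocorticoid is named among the treatments of either group, and nothing in the labels says that the replicates were separate cultures, so the spread between them may be technical. In such bulk data a site open in fewer cells and a site less open in each cell cannot be told apart.

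The glucocorticoid receptor waits in the cytoplasm in a complex with heat shock chaperones, and after it binds hormone it moves to the nucleus and binds DNA at glucocorticoid response elements (GREs), often in chromatin that is already open. Among its induced genes are feedback regulators such as FKBP5, which lowers the receptor's affinity for hormone, and effectors such as TSC22D3 and DUSP1, which dampen inflammatory signaling. In myeloma, dexamethasone, a synthetic glucocorticoid, is part of standard treatment and kills sensitive plasma cells through this receptor.

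The libraries differed in size. They held 57226 to 60349 called regions with CB-6644 and 64577 to 71131 with DMSO, and background tags per kb, recovered from the lists as a stand-in for depth, ran from 3.20 to 7.05 and from 6.40 to 9.08. A region without a peak was therefore not detected in that library, which does not show that it was closed. In CB-6644 replicate 2 and DMSO replicate 1 the shortest peak was 65 and 91 bp, against 131 to 152 bp in the other 4 libraries, and these 4 are called long-fragment libraries here. The name rests on the shortest peak alone. The labels give no fragment length or batch, and the source of the gap was not tested. The promoters of 8 of 8 plasma cell and myeloma markers fixed for this check (IRF4, PRDM1, XBP1, SDC1, TNFRSF17, SLAMF7, CD38 and MAF) had a peak in all 6 libraries. Of 7 markers of other cells, CD3E, MS4A1, GATA1, CSF1R and ALB had no promoter peak in any library, and PAX5 and COL1A1 had one in all 6.

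To look for the receptor's own sequence in these windows, each region was searched within 150 bp of its strongest summit for a GRE-like match, defined as AGAACA and TGTTCT with 3 bases between them and at most 2 mismatches among the 12 fixed positions. Such a match was present in 6 of the 200 window regions (3%, 95% Wilson interval 1.38 to 6.39%) and in 1.83% of all merged regions. Searching the whole merged region in place of the stretch around the summit also gave 3%, against 2.10% of all merged regions. By that search 1 match was lost, in an NR3C1 intron where 3 of its 15 bases fell inside the region, and 1 was gained, beside TSC22D3. The 6 matches that lay wholly inside an open region by either search are shown on the plus strand of hg38, with the 2 arms of the match in capitals.
FKBP5 intron, chr6:35602052-35602126: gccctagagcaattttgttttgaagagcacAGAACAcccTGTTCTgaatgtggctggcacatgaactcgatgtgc
FKBP5 intron, chr6:35611302-35611376: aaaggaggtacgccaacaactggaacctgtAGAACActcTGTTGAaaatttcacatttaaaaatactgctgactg
FKBP5 upstream, chr6:35731988-35732062: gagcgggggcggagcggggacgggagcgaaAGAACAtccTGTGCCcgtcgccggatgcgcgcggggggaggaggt
ZBTB16 intron, chr11:114080462-114080536: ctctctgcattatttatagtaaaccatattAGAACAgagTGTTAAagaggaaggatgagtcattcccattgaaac
TSC22D3 downstream, chrX:107711030-107711104: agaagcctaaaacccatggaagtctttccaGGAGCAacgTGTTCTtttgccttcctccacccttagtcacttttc
TSC22D3 downstream, chrX:107677185-107677259: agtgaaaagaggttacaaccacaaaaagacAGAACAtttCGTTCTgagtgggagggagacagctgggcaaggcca
The first has 0 mismatches, the last has 1 and the other 4 have 2 each. A match of at most 1 mismatch was found within 150 bp of the summit in 1 of the 200 window regions and in 0.140% of all merged regions, and within the whole region in 2 of the 200 (1%) and in 0.168%. A match describes letters only and is not evidence of binding.

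The region over the exact match in FKBP5 (chr6:35601903-35602098) was among the weakest in these windows. It was called in DMSO replicate 1 with a summit pile-up of 9 tags and in DMSO replicate 2 with 19 tags, at the 3.84th and 12.6th percentile of −log10 p in their lists (100 being the strongest peak of a list). It was not called in DMSO replicate 3 or in any CB-6644 library, so no difference between the groups was detectable there at this depth. The other 5 regions shown were called in all 6 libraries. To compare such shared regions, the summit pile-up of each library was scaled by the median of ratios over the 42089 regions called in all 6 libraries, and the log2 values were tested in 1 limma fit over all of them, with Benjamini-Hochberg adjustment. In these units the FKBP5 intron region chr6:35610985-35611549 stood at 83.8, 75.0 and 76.3 in CB-6644 replicates 1, 2 and 3 and at 80.2, 82.9 and 105 in DMSO replicates 1, 2 and 3. The groups overlapped. Its log2 difference (CB-6644 minus DMSO) was -0.18 (limma, adjusted p = 0.58), and the differences of the other 4 ran from -0.19 to -0.14, none past an adjusted p of 0.05. The region beside the NR3C1 intron match was called in DMSO replicate 3 alone.

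Over the 7 windows together, fewer regions were called after CB-6644. The libraries held 133, 139 and 130 regions with CB-6644 and 163, 161 and 150 with DMSO, with means of 134 ± 4.58 and 158 ± 7 (SD, n = 3 each). Every CB-6644 library lay below every DMSO library, which gives the smallest p that 3 against 3 libraries allow (exact two-sided permutation test, p = 0.1). The CB-6644 lists were shorter genome-wide, however. Per 1000 regions called in the same library the windows held 2.31, 2.30 and 2.27 regions with CB-6644 and 2.29, 2.32 and 2.32 with DMSO, and these values overlapped (difference -0.016, exact two-sided permutation test, p = 0.5). By gene, only NR3C1 and SGK1 had fewer regions in every CB-6644 than in every DMSO library, 2 of 7 genes, where 19.5% of all protein-coding genes did. Per 1000 called regions SGK1 remained below in that sense, with 0.282 to 0.332 after CB-6644 and 0.372 to 0.418 with DMSO, as did 6.55% of all genes. PER1 went the other way, with 0.574 to 0.612 after CB-6644 and 0.478 to 0.542 with DMSO, as did 22.5% of all genes.

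**Figure D1:**
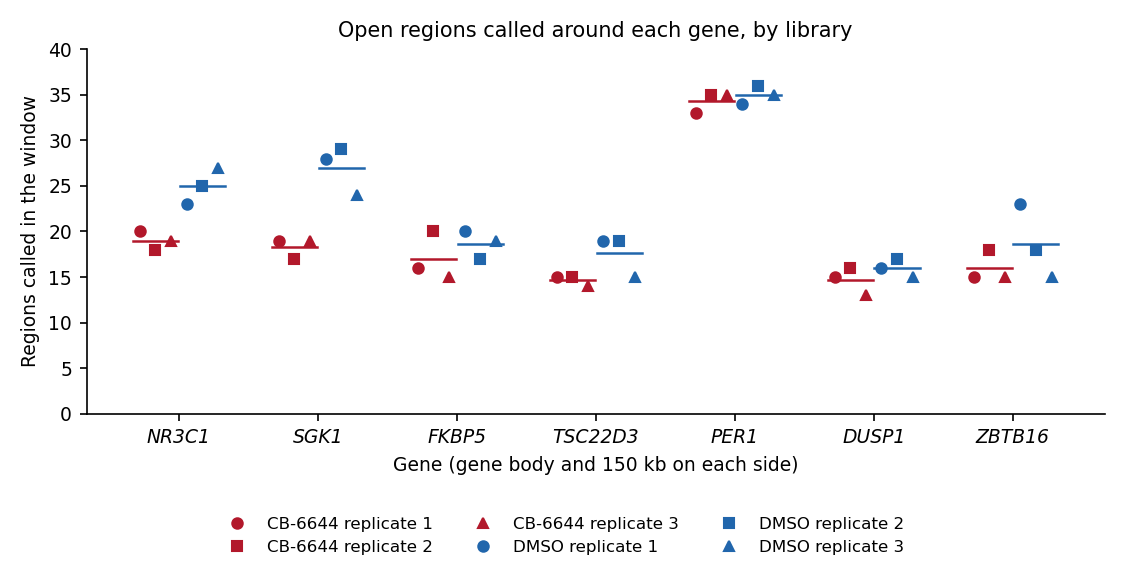
Number of merged regions called in the window of each gene (gene body and 150 kb on each side), 1 point per library with CB-6644 in red and DMSO in blue, and the group mean as a line. The 2 groups are apart in NR3C1 and SGK1 and overlap in the other 5 windows.

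Of the 200 regions, 101 were called in all 6 libraries (50.5%, against 47.2% of all merged regions). There were 11 DMSO-only regions, called in all 3 DMSO libraries and in no CB-6644 library (5.5%, against 4.5% of all merged regions), and 0 CB-6644-only regions, which made up 0.586% of all merged regions. The DMSO-only regions were unevenly spread, with 7 in the SGK1 window, 2 at NR3C1, 1 at TSC22D3, 1 at PER1 and none at FKBP5, DUSP1 or ZBTB16, and without the SGK1 window they were 4. They were weak to middling peaks. Their percentiles ran from 0.605 to 50.2, and the median over regions of the mean percentile was 17.9, against 66.0 for the regions called in all 6 libraries. Their scaled summit pile-up in the DMSO libraries ran from 7.54 to 60.1, where the CB-6644 lists reached down to 7.02 to 8.11 and had a 5th percentile of 12.2 to 14.0. With each list cut to its 58563 strongest peaks the count was 3, beside 5 CB-6644-only regions, and without DMSO replicate 3 it was 18. None of the 11 had a GRE-like match, against 2.74% of all DMSO-only regions, and with a share that low 11 regions can show little.

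NR3C1 encodes the receptor itself (ENSG00000113580.15, chr5:143277931-143435512, minus strand). Its main promoter region, chr5:143403411-143404639, was open throughout, with a scaled summit pile-up of 187, 178 and 224 after CB-6644 and 190, 185 and 154 with DMSO (log2 difference 0.16, limma, adjusted p = 0.56). The groups overlapped. A weaker promoter region at the 5′ end of the gene, chr5:143435173-143435551, had 27.9, 22.3 and 28.1 after CB-6644 and 40.5, 36.2 and 33.5 with DMSO. There all CB-6644 values lay below all DMSO values, but the log2 difference of -0.50 did not pass the test (limma, adjusted p = 0.18). A promoter region beside the main one, chr5:143405141-143405499, had a log2 difference of -0.31 (limma, adjusted p = 0.30).

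The window as a whole held 34 regions, of which 20, 18 and 19 were called in CB-6644 replicates 1, 2 and 3 and 23, 25 and 27 in DMSO replicates 1, 2 and 3 (means 19 ± 1 and 25 ± 2, exact two-sided permutation test, p = 0.1). One of its DMSO-only regions lay in an NR3C1 intron, chr5:143339001-143339228, at the 47.9th, 32.3rd and 36.7th percentile in DMSO replicates 1, 2 and 3, with a match to the E-box CAGGTG at its summit. The other, chr5:143515050-143515503, lay 79.9 kb from the nearest NR3C1 TSS, at the 13.6th to 15.4th percentile.

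NR3C1 also had the widest range of shared-region differences of the 7 windows, from -1.60 to 1.46 on the log2 scale over 15 regions, and 4 of them passed an adjusted p of 0.05. The drop was at an intergenic region downstream of the gene, chr5:143262447-143262804, 127 kb from the nearest NR3C1 TSS and nearest to ARHGAP26. Its scaled summit pile-up was 26.9, 16.2 and 22.8 after CB-6644 and 50.9, 73.9 and 73.3 with DMSO, and the groups were far apart. The log2 difference was -1.60 (SE 0.25, limma, adjusted p = 0.0056). The 81 bases around its strongest summit are shown because they hold an AP-1 match (TGANTCA) and an ATF4-CEBP match (TGATGNAA, here on the minus strand), in capitals.
NR3C1 downstream, chr5:143262518-143262598: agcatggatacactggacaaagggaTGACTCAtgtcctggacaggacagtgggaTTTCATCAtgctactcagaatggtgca
AP-1 matches were found within 150 bp of the summit, on either strand, in 13.3% of all merged regions and ATF4-CEBP matches in 5.57%. Among all regions called in all 6 libraries, the class of this region, the shares were 12.4% and 3.75%. ATF4-CEBP matches were found in 15.7% of all DMSO-only regions and in 3.06% of all CB-6644-only regions. For AP-1 these shares were 15.96% and 18.36%. None of the 11 DMSO-only window regions had an ATF4-CEBP match. Whether either match bears on the drop was not tested.

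In the same window 3 shared regions rose. An NR3C1 intron region 9.05 kb from the nearest TSS, chr5:143414100-143414638, had 40.8, 48.6 and 39.5 after CB-6644 and 25.5, 20.9 and 23.4 with DMSO (log2 difference 0.88, SE 0.20, limma, adjusted p = 0.025). A region upstream of the gene, chr5:143573588-143574194, had 46.2, 40.5 and 43.9 against 20.7, 26.5 and 24.2 (log2 difference 0.88, SE 0.20, limma, adjusted p = 0.025). In neither did the groups overlap, but both calls were lost under the replicate block (limma, adjusted p = 0.074 and 0.075) and without CB-6644 replicate 1 or 3 or DMSO replicate 2 or 3, and the upstream one also without DMSO replicate 1 (limma, highest adjusted p 0.15 and 0.094). The last, chr5:143169115-143169591, lay at an exon and promoter of the neighboring ARHGAP26, a GTPase-activating protein, with 38.7, 24.3 and 34.2 after CB-6644 and 12.3, 9.06 and 14.0 with DMSO (log2 difference 1.46, SE 0.26, limma, adjusted p = 0.0097). It missed the threshold without DMSO replicate 2 (limma, adjusted p = 0.068). The drop at chr5:143262447-143262804 stayed past the threshold with each library left out.

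SGK1 encodes a serum- and glucocorticoid-induced kinase that regulates ion channels and cell survival (ENSG00000118515.12, chr6:134169248-134318112, minus strand). Its window showed the largest reduction in called regions. The libraries called 19, 17 and 19 of its 35 regions after CB-6644 and 28, 29 and 24 with DMSO (means 18.3 ± 1.15 and 27 ± 2.65, exact two-sided permutation test, p = 0.1). The groups did not overlap, and they were also apart within the long-fragment libraries, at 19 and 19 against 29 and 24. The gene has 26 annotated TSSs spread over 149 kb, of which 10 had a region called in all 6 libraries within 1000 bp and 12 had none in any library. Those without a region included the canonical TSS at the far 5′ end.

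Of the 10 shared regions in the window 1 was lower and 0 higher, with a median log2 difference of -0.14. The main promoter was among the 9 that did not pass the test. The region chr6:134174626-134175741, over the TSSs nearest the 3′ end, had a scaled summit pile-up of 236, 227 and 288 after CB-6644 and 229, 254 and 269 with DMSO, with the groups interleaved. Its log2 difference was -0.0061 (SE 0.13, limma, adjusted p = 0.98), and it stood at the 92.7th to 95.4th percentile of every list. The strongest distal region shared by all libraries in the window did fall. It lay in an SGK1 intron, chr6:134196517-134196913, 18.7 kb from the nearest TSS, with 76.3, 64.8 and 53.5 after CB-6644 and 151, 125 and 127 with DMSO. Every DMSO value was above every CB-6644 value, the log2 difference was -1.06 (SE 0.18, limma, adjusted p = 0.0069), and it stayed past the threshold under all 12 alternative fits that could include it.

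The SGK1 window held 7 DMSO-only regions, 20% of its 35, against 4.5% of all merged regions. Of all protein-coding genes 0.0150% had as many in their windows, a share that takes no account of window length or number of regions. As many regions of any class were found at 4.26% of genes. This cluster was known from earlier results of these data. The 0.0150% only describes it, and the permutation test of the window counted these same regions, so neither is independent support for it. The strongest, chr6:134249585-134249887, lay in an SGK1 intron 0.232 kb from an internal TSS, with a scaled summit pile-up of 48.1, 46.0 and 60.1 in DMSO replicates 1, 2 and 3, at the 50.2nd, 37.5th and 44.6th percentile. Another lay at an internal promoter next to the main one, chr6:134178347-134178693, with 53.8, 46.0 and 50.7. The 5th percentile of the CB-6644 lists was 12.2 to 14.0, but those lists hold no value at these regions and a call also depends on the local background. Whether depth accounts for the missing calls was not tested. A region upstream of the gene, chr6:134331379-134331599, 13.4 kb from the nearest SGK1 TSS, had 21.7, 27.9 and 20.3.

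The other named DMSO-only regions of the window were weaker. They lay in an SGK1 intron (chr6:134185410-134185628, 13.2, 13.9 and 15.6 in DMSO replicates 1, 2 and 3), on the downstream side at 109 kb from the nearest SGK1 TSS and nearest to SLC2A12 (chr6:134063197-134063404, 17.0, 22.3 and 20.3), and over an exon of the noncoding LINC01010 (chr6:134464773-134465065, 10.4, 14.6 and 14.0). The count of 7 became 2 with lists of equal length, 3 in the long-fragment libraries once these were scaled to the same background (−log10 p of 20 or more), and 0 with the 20000 strongest peaks of each library, which the peaks at these percentiles do not reach. Sequences around the strongest summits of the falling intron region, the 2 internal promoters and the downstream region are shown because SGK1 carried most of the DMSO-only regions, with an AP-1 match in capitals where these 81 bases held one.
SGK1 intron, chr6:134196585-134196665: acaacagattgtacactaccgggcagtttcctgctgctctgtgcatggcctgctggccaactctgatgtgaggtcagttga
SGK1 internal promoter, chr6:134249732-134249812: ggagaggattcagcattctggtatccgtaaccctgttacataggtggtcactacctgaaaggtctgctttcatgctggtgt
SGK1 internal promoter, chr6:134178379-134178459: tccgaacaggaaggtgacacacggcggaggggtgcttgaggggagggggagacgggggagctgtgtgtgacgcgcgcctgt
SGK1 downstream, chr6:134063255-134063335: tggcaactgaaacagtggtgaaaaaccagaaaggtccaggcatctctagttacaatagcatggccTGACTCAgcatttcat
Besides GRE-like matches, an AP-1, ATF4-CEBP, IRF (GAAA, any 2 bases, GAAA), MAF (TGCTGAC) or E-box match was looked for. The intron region had an AP-1 match outside the stretch shown. Neither internal promoter region had any of the 5 within 150 bp of its summit, which says only that these letters were not in that stretch.

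**Figure D2:**
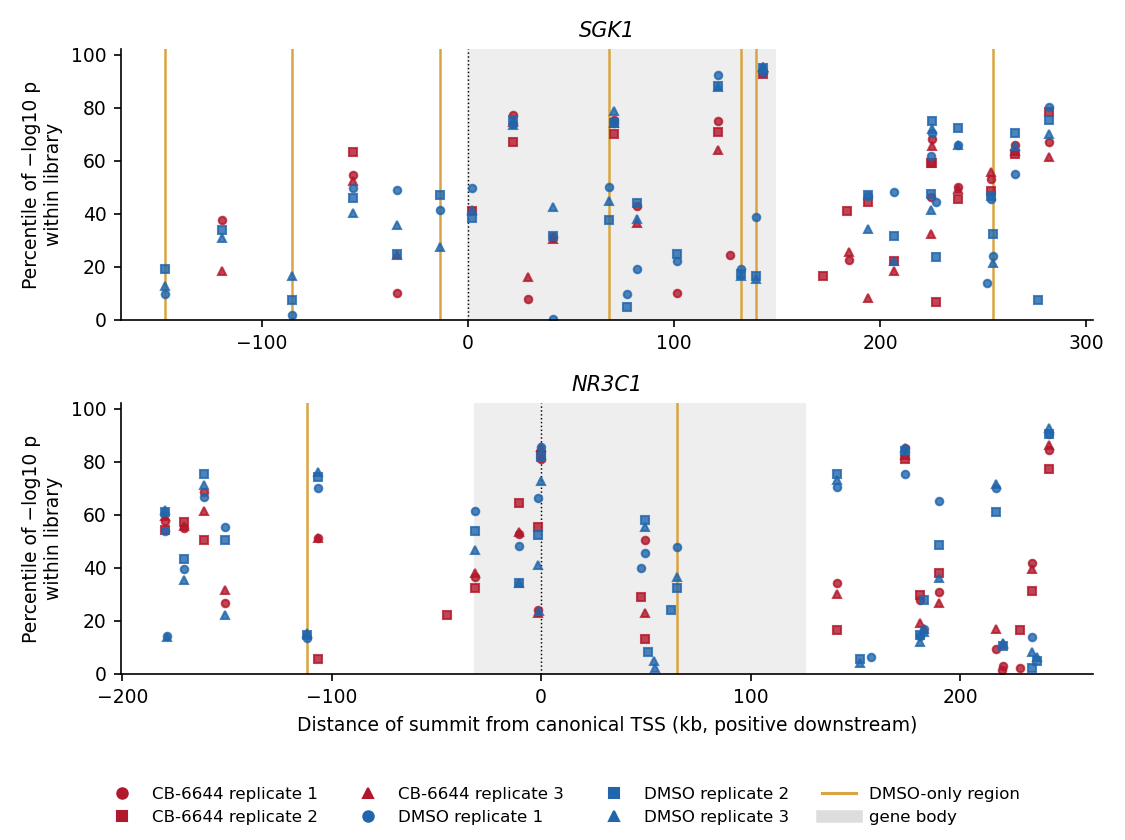
Percentile of −log10 p within its own list (100 the strongest) of each peak in the SGK1 and NR3C1 windows, against the distance of the region's strongest summit from the canonical TSS in kb, with 1 marker per library, the gene body shaded and DMSO-only regions as vertical lines. The 7 DMSO-only lines at SGK1 run from the upstream flank to the downstream flank, and the main SGK1 promoter near the 3′ end of the gene body sits at the 92.7th to 95.4th percentile in all 6 libraries.

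FKBP5, a cochaperone of the receptor complex and a feedback inhibitor of it (ENSG00000096060.15, chr6:35573585-35728583, minus strand), kept its promoters in both groups. The promoter region over the canonical TSS, chr6:35687762-35689332, had a scaled summit pile-up of 168, 247 and 196 after CB-6644 and 230, 200 and 203 with DMSO (log2 difference -0.067, limma, adjusted p = 0.84). The upstream promoter region, chr6:35727737-35728513, had 233, 278 and 287 against 285, 252 and 235 (log2 difference 0.048, limma, adjusted p = 0.87). Both overlapped between the groups. The window held 28 regions, of which 16, 20 and 15 were called after CB-6644 and 20, 17 and 19 with DMSO. None of the 12 shared regions passed the test, and their log2 differences lay between -0.48 and 0.35. Of the 6 GRE-like stretches shown 3 fell in this window, including the exact one.

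TSC22D3, also called GILZ, encodes a leucine zipper protein that restrains inflammatory transcription factors (ENSG00000157514.18, chrX:107713221-107777342, minus strand). Its 2 main promoter regions were shared by all libraries. The one over the longer transcripts, chrX:107775593-107776339, had 130, 184 and 122 after CB-6644 and 175, 134 and 142 with DMSO (log2 difference -0.063, limma, adjusted p = 0.88), and the internal one, chrX:107716564-107717609, had 125, 113 and 129 against 124, 114 and 165 (log2 difference -0.12, limma, adjusted p = 0.72). The values of the 2 groups interleaved at both. Of 12 shared regions 11 had a log2 difference below 0, from -0.45 to 0.027, and none passed the test. The only DMSO-only region, chrX:107655151-107655499, was nearest to PRPS1 and stood at the 0.605th percentile in DMSO replicate 3.

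PER1, a circadian clock repressor that glucocorticoids induce (ENSG00000179094.16, chr17:8140472-8156506, minus strand), had the strongest promoter of the 7 genes. The region chr17:8156221-8157065 had 433, 458 and 479 after CB-6644 and 430, 376 and 404 with DMSO, at the 98.2nd to 99.1st percentile of every list. The lowest CB-6644 value was just above the highest DMSO value, and the log2 difference of 0.18 did not pass the test (limma, adjusted p = 0.29). A promoter region at the canonical TSS, chr17:8152376-8152596, was called in all CB-6644 libraries and in DMSO replicates 1 and 3. Its window is gene-rich, with 14 other protein-coding genes, and 28 of its 40 regions were called in all 6 libraries. The only call there was a drop over an exon of the neighboring HES7 (chr17:8120201-8120949), from 114, 115 and 106 with DMSO to 68.8, 77.0 and 83.4 after CB-6644 (log2 difference -0.55, SE 0.15, limma, adjusted p = 0.049). It was lost in 9 of 12 alternative fits, among them those without any library other than CB-6644 replicate 2 (limma, highest adjusted p 0.225, without DMSO replicate 2). The DMSO-only region chr17:8162342-8162502 lay over an exon of VAMP2.

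DUSP1 encodes a dual-specificity phosphatase that switches off MAP kinases (ENSG00000120129.6, chr5:172768096-172771195, minus strand). Its promoter region, chr5:172770560-172771609, had 192, 221 and 247 after CB-6644 and 217, 227 and 199 with DMSO (log2 difference 0.034, limma, adjusted p = 0.91). A second region within 1000 bp of the TSS, chr5:172772082-172772666, had 171, 164 and 185 against 118, 131 and 129. Those groups did not overlap, and the log2 difference of 0.46 just missed the threshold (SE 0.13, limma, adjusted p = 0.052). A distal region 30.2 kb from the TSS rose. This intergenic region, chr5:172740756-172741162, had 81.7, 93.2 and 71.1 after CB-6644 and 44.3, 37.6 and 28.1 with DMSO, with a log2 difference of 1.18 (SE 0.22, limma, adjusted p = 0.011). It missed the threshold without DMSO replicate 2 (limma, adjusted p = 0.060). The strongest distal region, chr5:172765122-172765643, lay 5.81 kb from the TSS and did not differ beyond the spread, at 246, 170 and 236 against 182, 209 and 230 (log2 difference 0.059, limma, adjusted p = 0.87).

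ZBTB16, a zinc finger transcription factor also known as PLZF (ENSG00000109906.15, chr11:114059041-114256765, plus strand), is a strongly glucocorticoid-induced gene in many cell types. The promoter region at its 5′ end, chr11:114060503-114061590, was weak in these cells, at 27.9, 12.2 and 28.1 after CB-6644 and 37.7, 43.9 and 39.0 with DMSO. All CB-6644 values were below all DMSO values, but the log2 difference of -0.92 (SE 0.32) did not pass the test (limma, adjusted p = 0.11). A stronger internal promoter region, chr11:114159920-114160603, had 201, 132 and 194 against 158, 168 and 196, with a log2 difference of -0.0070 (limma, adjusted p = 0.99). An intron region 8.42 kb from an internal TSS, chr11:114168637-114168976, rose from 41.5, 43.9 and 36.7 with DMSO to 83.8, 89.2 and 76.3 after CB-6644. The groups were well apart, the log2 difference was 1.03 (SE 0.18, limma, adjusted p = 0.0075), and the region stayed past the threshold in all 11 alternative fits that could include it.

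The stretches around the summits of the rising DUSP1 and ZBTB16 regions are shown because these were the rising regions outside the NR3C1 window, with E-box matches in capitals.
DUSP1 distal, chr5:172740943-172741023: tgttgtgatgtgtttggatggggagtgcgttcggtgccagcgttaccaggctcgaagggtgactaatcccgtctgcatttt
ZBTB16 intron, chr11:114168804-114168884: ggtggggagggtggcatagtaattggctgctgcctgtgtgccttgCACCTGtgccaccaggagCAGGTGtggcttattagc
The ZBTB16 stretch holds the E-box on both strands. The DUSP1 region had an E-box only outside the stretch shown, and 33.9% of all merged regions had one within 150 bp of the summit.

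Over the 7 windows, 3 of the 101 shared regions were lower after CB-6644 (2.97%, against 5.17% of all shared regions) and 5 were higher (4.95%, against 3.95%). A region missed by any library was not tested, and the CB-6644 lists were the shorter ones. These counts therefore leave out falls that ended in a missing call, and they do not set losses against gains. In the 4 long-fragment libraries the counts were 8 lower and 6 higher of the 101. Over all 42089 shared regions that fit called 4705 lower and 3680 higher. All 8 regions named above as past the threshold were past it there too. These libraries are part of the set in which the 8 were picked, so this is not independent support. With 1 library left out, 5 were lower without CB-6644 replicate 2, where 3074 of all shared regions were. Without DMSO replicate 2, 1 was higher, where 417 of all shared regions were. Without CB-6644 replicate 1 or 3 or DMSO replicate 3, 3 were higher, where 977, 901 and 638 of all shared regions were. The median log2 difference of the 101 was -0.022, and over all 42089 shared regions it was 0.013. Of the 8 regions past the threshold, 5 had one of the 7 genes at the nearest TSS and 3 had another gene, and 0 lay at a promoter of the 7 genes.

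**Figure D3:**
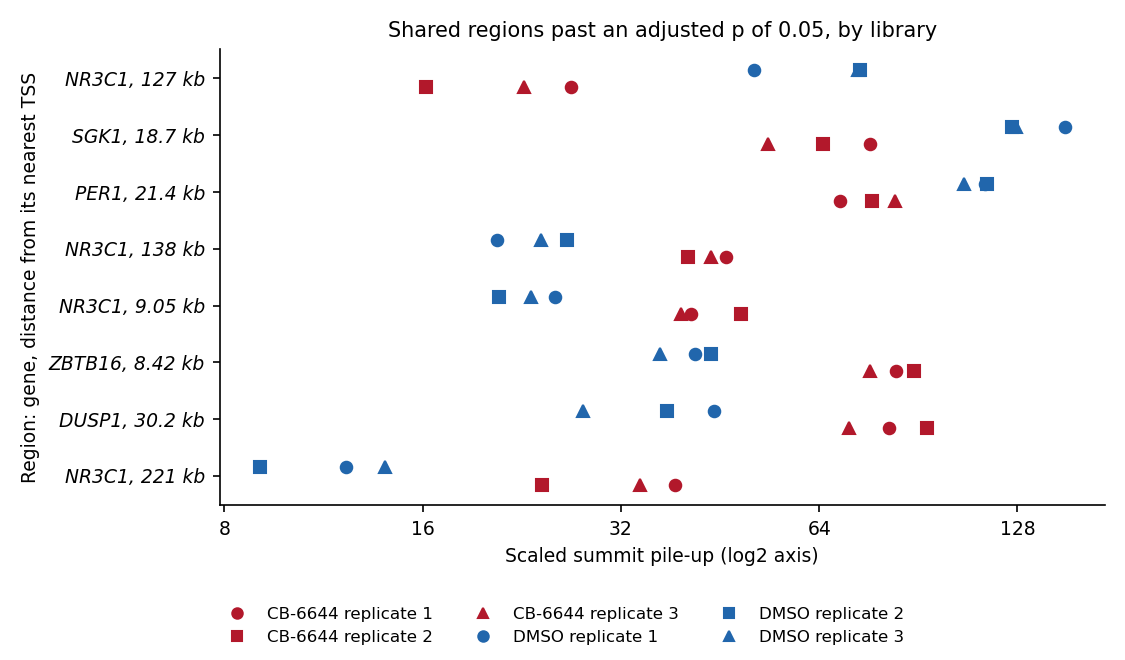
Scaled summit pile-up (tags, log2 axis) in each library of the 8 shared regions past an adjusted p of 0.05 by limma, named by the gene window and the distance to that gene's nearest TSS, with CB-6644 in red and DMSO in blue. In each of the 8 regions the 3 red points lie on 1 side of the 3 blue points, which the threshold favors, and the top 3 regions fell and the lower 5 rose.

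All 7 genes had a promoter peak in all 6 libraries, as did 66.5% of protein-coding genes. Of their 22 promoter regions 15 were shared by all libraries. The log2 differences of these 15 ran from -0.92 at ZBTB16 to 0.46 at DUSP1, with a median of -0.0070, and 0 passed an adjusted p of 0.05 (limma, 3 at an unadjusted p under 0.05).

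**Figure D4:**
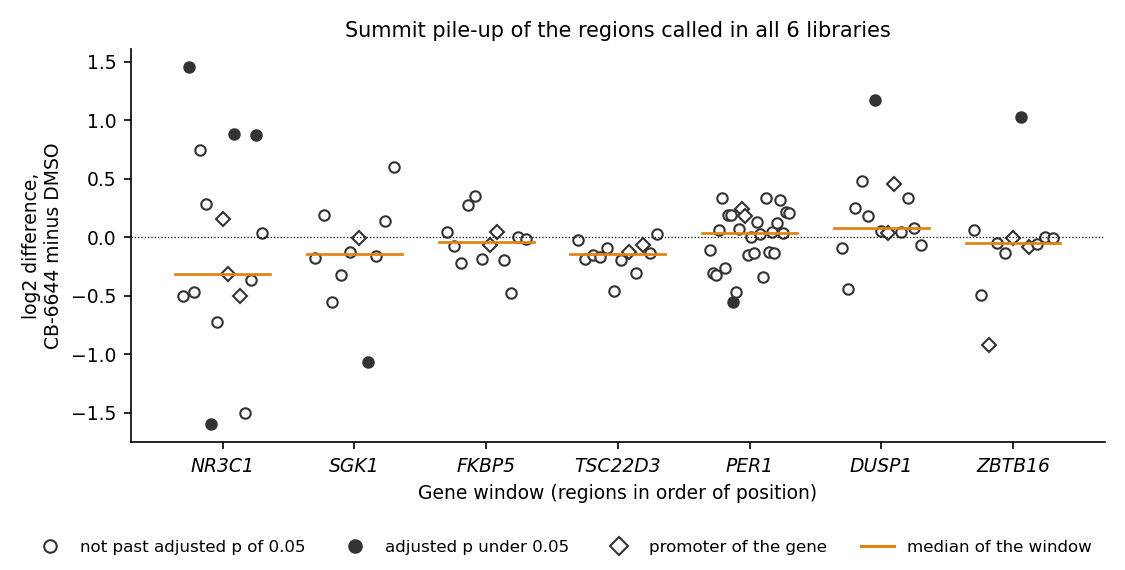
Log2 difference in scaled summit pile-up (CB-6644 minus DMSO) of each region called in all 6 libraries, by gene window in order of genome position, with promoter regions of the gene as diamonds, regions past an adjusted p of 0.05 filled and the window median as a line. The promoters lie between -0.50 and 0.46 except the 5′ promoter of ZBTB16 at -0.92, no filled point is a promoter of the 7 genes, and the spread is widest at NR3C1.

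Other genes of the pathway were counted in windows of the same kind. Among 13 genes that handle the receptor or its steroid ligands (HSP90AA1, HSP90AB1, HSPA8, FKBP4, PTGES3, STIP1, NCOA1, NCOA2, NCOA3, NCOR1, HSD11B1, HSD11B2 and ABCB1), all 13 had a promoter peak in every library. Their windows held 284 regions, of which 12 were DMSO-only (4.23%, against 4.5% of all merged regions) and 3 CB-6644-only (0.586% of all merged regions). Of 160 shared regions 6 were lower and 6 higher (3.75% each, against 5.17% and 3.95% of all shared regions). NCOA2, a coactivator that the receptor recruits, was the only one of the 13 with fewer regions in every CB-6644 library, as 19.5% of all protein-coding genes had, with 19, 14 and 15 after CB-6644 and 20, 22 and 21 with DMSO, and it had 3 DMSO-only regions.

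Among 18 other genes known to be induced by glucocorticoids (KLF9, KLF13, CRISPLD2, BCL2L11, NFKBIA, TXNIP, DDIT4, BCL6, IRS2, MT2A, GLUL, ERRFI1, ZFP36, CDKN1C, GADD45B, ANXA1, CEBPD and TNFAIP3), 16 had a promoter peak in all 6 libraries, ERRFI1 in 1 and ANXA1 in none. Their windows held 357 regions, of which 13 were DMSO-only (3.64%, against 4.5%) and 1 CB-6644-only, and 12 of 194 shared regions were lower and 5 higher (6.19% and 2.58%, against 5.17% and 3.95%). CRISPLD2, MT2A and TNFAIP3, 3 of 18, had fewer regions in every CB-6644 library, where 19.5% of all genes did. At TNFAIP3, an inhibitor of NF-kB signaling, the counts were 21, 20 and 21 after CB-6644 and 26, 27 and 26 with DMSO. At MT2A, a metallothionein, they were 13, 15 and 14 against 21, 17 and 16. None of these genes had as many DMSO-only regions as SGK1.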

How the data were processed

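The 6 deposited peak lists hold one MM.1S library each. Per the study's methods and processing notes, the authors used Bowtie2 (2.4.2) for alignment to hg38 and MACS3 (3.0) for peaks, library by library. The deposited fold enrichment is the ratio of pile-up to local background, unscaled between libraries. The −log10 p-values and −log10 q-values are those of the authors' peak caller, and the integer score column of the deposited lists was not interpreted. The edgeR test of the study needs read counts, so it was not made here.

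Summit pile-up and background were solved from fold and −log10 p under a Poisson model (100% of peaks matched). Scripts used Python 3.11.15 (numpy 2.4.6, pandas 2.3.3, scipy 1.17.1) and limma 3.58.1 with a trend, in R 4.3.3, tested on simulated data. Library labels were permuted exactly (two-sided) to compare group means. Genes, lists and windows were chosen with earlier results of these data known. Named regions were the promoter regions of each gene, group-only regions (at most 6 per gene and class), shared regions past the threshold (at most 3 per gene), the strongest distal shared region and GRE-like matches of at most 1 mismatch. All 4 shared NR3C1 regions, regions near the threshold and the summit sequences were added after their values were seen. Some genes of the marker and pathway lists are not reported here. Groups and replicate numbers came from the labels. Intervals cover counting error only.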

Additional observations from a re-analysis of the deposited data

How the results depend on the processing

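There were 24 planned settings and 2 added after seeing the data (the 6 windows other than SGK1, and whole regions with at most 1 mismatch). Each result was recomputed under those that bear on it. The difference in regions called in the 7 windows, -24, stayed below 0 in the 16 run for it, from -42.3 (peaks covering at least 50% of a region) to -1 (20000 top peaks), and from -27.8 to -21.5 with a library left out. The difference per 1000 called regions, -0.016, turned to 0.0073 with equal numbers of top peaks, 0.035 with 50 kb flanks, 0.018 in the scaled long-fragment libraries and 0.063 without the SGK1 window, and ran from -0.032 to 0.0013 with a library left out (above 0 without DMSO replicate 3). Under the replicate block the differences were -24 (exact sign-flip test, p = 0.25, the smallest possible) and -0.016 (exact, p = 0.75).

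The 11 DMSO-only regions became 3 with equal numbers of top peaks, 0 with 20000 top peaks, 6 with 50% cover, 50 kb flanks or the scaled long-fragment libraries, 4 in the gene bodies or without the SGK1 window, and 12 to 18 with a library left out (18 without DMSO replicate 3). The 0 CB-6644-only regions became 5, 2, 2 and 4 with equal numbers of top peaks, 20000 top peaks, the long-fragment libraries and these scaled, and 0 to 2 with a library left out. By gene, the difference in called regions turned above 0 at FKBP5 (0.667), TSC22D3 (1), PER1 (1.67) and DUSP1 (0.667) with equal numbers of top peaks, at PER1 (0.667) and DUSP1 (2.33) with 20000 top peaks, at DUSP1 with 50 kb flanks (0.333), at PER1 in the gene body (0.333), and at TSC22D3 (2) and PER1 (0.5) in the scaled long-fragment libraries, and at SGK1, NR3C1 and ZBTB16 in none of the 14 settings run by gene. The promoter count was 7 except with canonical TSSs, where SGK1 dropped out (6).

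The 3 lower and 5 higher shared regions became 11 and 8 with the fragment set as a term, 1 and 0 in the upper part by mean signal, 3 and 3 under the replicate block or with 50 kb flanks, 8 and 6 in the long-fragment libraries, and 2 and 2 at an adjusted p under 0.01 and over 2-fold. Over all 42089 shared regions the fragment-set fit called 5781 lower and 4611 higher, and the long-fragment fit 4705 and 3680. The upper part tested 63 of the 101 regions, and over the genome 761 of its 21045 were lower and 407 higher. Of the regions past the threshold it held only those at SGK1 and HES7. With a library left out the window counts ran from 2 to 5 and from 1 to 6, with 1 higher without DMSO replicate 2. Over all shared regions the counts ran from 485 to 3074 and from 417 to 2524. The median difference moved to -0.088 with the long-fragment libraries alone and to -0.065 with 50 kb flanks. The share with a GRE-like match was 0.5% at 1 mismatch, 3% over whole regions and 1% over whole regions at 1 mismatch. Over all merged regions these shares were 0.140%, 2.10% and 0.168%. In their deviations from the group means, same-numbered libraries correlated at -0.50, -0.19 and 0.34. These correlations followed the shortest peak: CB-6644 replicate 2 and DMSO replicate 1 correlated at 0.58, and every pair that mixed the sets was negative. They therefore cannot show whether the replicate numbers paired the libraries. The block took the calls over all shared regions from 2177 lower and 1661 higher to 1352 and 998. Lists without read totals limit what an absent peak can show.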
